A study of Drosophila melanogaster with 8 samples.

Results

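Eye-antennal imaginal discs of wandering Drosophila melanogaster larvae that carried clones of the RasV12 scrib tumour genotype with the Jun N-terminal kinase (JNK) blocked were set against discs with control clones. The comparison rests on 2 of the 8 samples, 1 library a side, and addresses which differences from control remain in the tumour genotype once JNK is blocked. The other libraries are used as context: discs with RasV12 alone, with BskDN alone, with scrib loss and BskDN, and with RasV12 and scrib loss at an early and a late age, together with scrib mutant wing discs.

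By the labels, all eye-antennal libraries carry FLP recombinase under an eye-specific driver (eyflp), the act>y+>Gal4 flip-out driver, UAS-GFP, and a chromosome with FRT82, e and tub-GAL80 over a second FRT82 chromosome. FLP makes clones that lose the Gal80 repressor, so that Gal4 switches on GFP and any UAS transgene in them, and the tissue is a mosaic whose share of clone cells is not given. Control clones carry no further transgene or mutation. RasV12 scrib BskDN clones express UAS-Ras[V12], a form of the GTPase Ras85D that stays active, and a dominant-negative form of the fly JNK Basket, written UAS-BSK[DN] in its label, and are homozygous for scrib[2], an allele of the polarity gene scribble. The BskDN transgene stands opposite y,w,eyflp in the label. Control was collected 5 days after egg laying and RasV12 scrib BskDN after 6 days. RasV12 alone was collected after 5 days, scrib BskDN and the scrib wing discs after 6, and the early tumours (RasV12 scrib early) after 7. The late tumours (RasV12 scrib late) and BskDN alone were collected after 11 days. Each library pooled the discs of 50 to 60 larvae raised at 25 °C, and no group has a second library.

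Ras signals through the MAP kinase cascade and induces its own inhibitors, such as sprouty and argos, and in the eye disc it drives photoreceptor recruitment. JNK signalling is switched on in epithelial cells that lose scribble. In scrib clones alone it leads to cell elimination, while together with active Ras it drives invasion, secretion of the Upd cytokines and of the relaxin-like peptide Ilp8, and a delay of pupariation. Hippo signalling restrains the coactivator Yorkie, whose targets promote growth and survival.

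Genes received 18508386 counts in control and 21027972 in RasV12 scrib BskDN, within a range of 17152279 to 21027972 over the series. Values are CPM, the counts of a gene per 1000000 counts of a library after scaling for composition. A fold is the ratio of these CPM with an exact 95% interval that covers counting error only, as PCR copies are not marked and reads are not independent. Log2 folds carry a prior count of 2. With 1 library a side differences cannot be compared with replicate error, and p-values are not given. The genes that the genotype acts on went with the label. Ras85D (3R:9510561-9513067) was at 253 CPM in control discs and 426 CPM in RasV12 scrib BskDN (1.68-fold, 1.62 to 1.74), and bsk (2L:10247502-10250501) at 99.0 and 1891 CPM (19.1-fold, 18.2 to 20.02). The scrib gene was at 400 and 420 CPM, which checks nothing, since scrib[2] need not lower its RNA. The eye genes ey (92.2 and 82.5 CPM), so (99.4 and 65.9 CPM) and eya (250.4 and 189 CPM) and the antennal genes Dll (66.8 and 59.9 CPM) and ct (99.95 and 104 CPM) were present in both libraries, as the tissue label says.

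Of 10029 genes with at least 1 CPM in some library, 111 (1.11%) were called higher in RasV12 scrib BskDN and 342 (3.41%) lower. A call needs a 4-fold difference on the log2 scale and 5 CPM or more in whichever library is higher. At least 2-fold higher were 818 genes (8.16%) and at least 2-fold lower 992 (9.89%). The 2-fold counts of the lists below are to be read beside these shares. The median log2 fold of all genes was 0.06, with quartiles of -0.18 and 0.25. Among the lists, glia markers (3 of 11) and neuroblast and optic lobe markers (2 of 9) held several of the higher calls, and cuticle protein genes (31 of 72) and muscle markers (10 of 12) many of the lower ones. Of the 342 lower genes, 157 exceeded all other eye-antennal libraries at least 4-fold in control, so that for them the control library stands apart and not RasV12 scrib BskDN. Without these genes 185 were lower. Of the 111 higher genes, 16 had their highest level of the 7 eye-antennal libraries in RasV12 scrib BskDN, and of the 342 lower genes 97 had their lowest there.

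**Figure D1:**
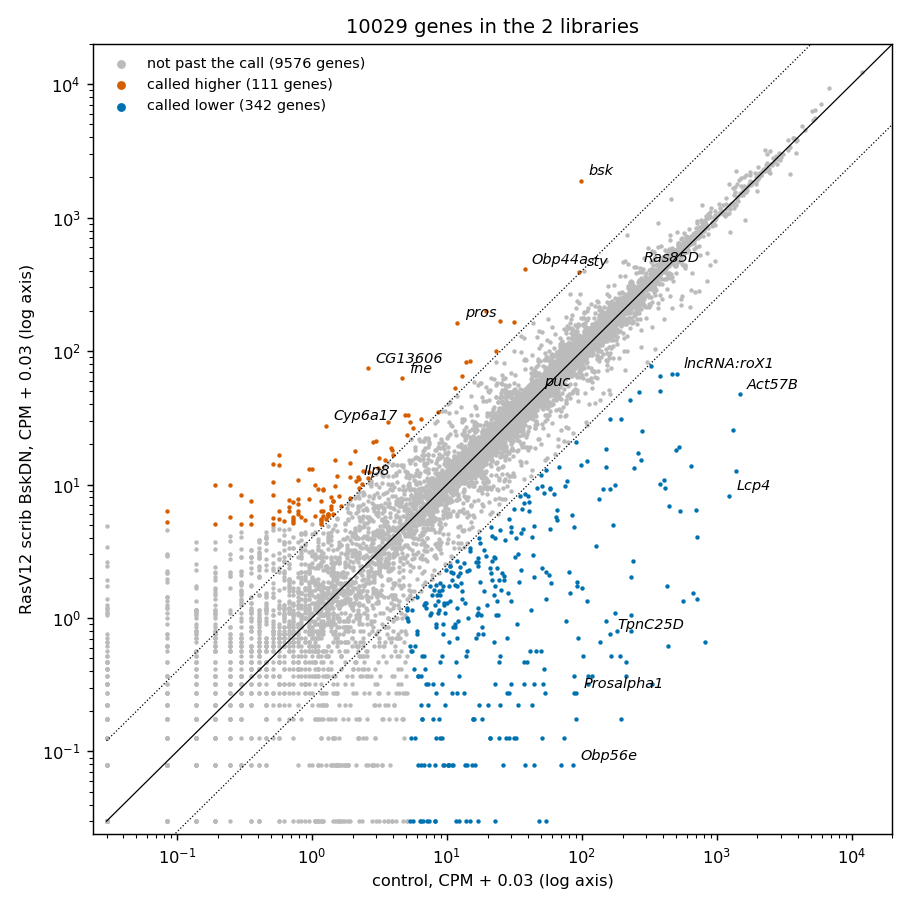
Normalized CPM of 10029 genes in control (horizontal) and RasV12 scrib BskDN (vertical), each with 0.03 added on a log axis. The 111 genes called higher are orange, the 342 called lower blue; dotted lines mark 4-fold. The bsk gene stands far above the diagonal, puc lies on it, and the muscle genes Act57B and TpnC25D lie far below.

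Of 18 genes that answer to Ras signalling, 4 were at least 2-fold above control with JNK blocked: sty, aos, kek1 and edl, each a feedback inhibitor or antagonist. The others were within 2-fold, 5 of them below control. Sprouty (sty, 3L:3401153-3424935), a feedback inhibitor of receptor tyrosine kinase signalling, was at 95.7 CPM in control discs, 463 CPM in RasV12 discs and 392 CPM in RasV12 scrib BskDN discs, 4.10-fold over control (3.89 to 4.32). It was at 140 CPM in BskDN discs, 163 CPM in scrib BskDN discs, 267 CPM in the early and 482 CPM in the late tumours. For sty the 4 libraries with RasV12 thus all lay above the 3 without it. Argos (aos), the secreted inhibitor of the EGF receptor, was at 46.1 CPM in control discs, 143 CPM in RasV12 discs and 128 CPM in RasV12 scrib BskDN (2.79-fold, 2.58 to 3.02). The transmembrane inhibitor kek1 was at 209, 539 and 474.5 CPM in the same 3 libraries (2.27-fold, 2.19 to 2.35). The Ets domain antagonist edl was at 15.1, 47.0 and 32.9 CPM (2.18-fold, 1.90 to 2.52). In each of these genes RasV12 alone was above RasV12 scrib BskDN, and both were above control. In kek1 and edl the order by RasV12 seen for sty failed: kek1 was at 278 CPM in the early tumours and 331 CPM in BskDN discs, and edl at 18.7 CPM in the early tumours, 24.1 CPM in BskDN discs and 27.0 CPM in scrib BskDN discs. Whole discs were sampled, so that more clone cells and more RNA per cell cannot be told apart here or below.

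Of these 18 Ras/MAPK response and feedback genes 0 passed 2-fold below control, and 1, sty, was called. The list's median log2 fold was 0.23, against 0.06 over all genes with an upper quartile of 0.25. Over the same control it was 0.53 in RasV12 discs, and without RasV12 0.41 in BskDN discs and 0.30 in scrib BskDN discs. The median of the list was therefore no higher in RasV12 scrib BskDN than in libraries that lack RasV12. Below 2-fold were the Ets activator pnt at 84.0 and 145 CPM, the MAP kinase phosphatase Mkp3 at 46.9 and 84.3 CPM, and the EGF receptor ligand spi at 174 and 314 CPM. The protease genes rho and ru, which release EGF receptor ligands, were on the other side: rho was at 37.2 CPM in control discs and 29.1 CPM in RasV12 scrib BskDN discs, and ru at 45.8 and 32.8 CPM. Their levels in RasV12 alone were 63.1 and 104 CPM. The core cascade of 14 genes had a median of 0.21, and apart from Ras85D itself and the feedback genes sty, Mkp3 and RasGAP1 (108 and 198 CPM) each member was within 1.5-fold of control. In the antennal list, 2 of 14 genes passed 2-fold above control and 2 below. The median was -0.18, with 8 of the 14 below control. The 2 higher genes were Lim1 and al. Lim1, a LIM homeodomain factor of the antenna and leg, was at 37.2 CPM in control discs, 116 CPM in RasV12 discs and 125 CPM in RasV12 scrib BskDN (3.35-fold, 3.08 to 3.65). Aristaless (al), a homeodomain factor of the distal antenna, was at 25.4, 91.8 and 66.3 CPM (2.61-fold, 2.35 to 2.90). In the early tumours Lim1 was at 39.9 CPM and al at 13.9 CPM, close to or below control.

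Most outputs of JNK that were high in the tumours were the other way round: they stood close to control and RasV12 levels, and far below both tumours without the block. Puckered (puc, 3R:8105332-8122294), the phosphatase that JNK induces against itself, was at 46.4 CPM in control discs and 49.6 CPM in RasV12 scrib BskDN (1.07-fold, 0.976 to 1.17). It was at 153 CPM in the early and 166 CPM in the late tumours, and at 116 CPM in scrib BskDN discs. So the library with scrib loss and BskDN but no RasV12 was above RasV12 scrib BskDN, although both carry the block. The matrix metalloprotease gene Mmp1 was at 68.6 CPM in control discs, 102 CPM in RasV12 discs and 125 CPM in RasV12 scrib BskDN (1.82-fold, 1.70 to 1.95), against 1309 CPM in the early and 1282 CPM in the late tumours. The filamin gene cher was at 583 CPM in control discs and 422 CPM in RasV12 scrib BskDN discs, with 1675 CPM in the early tumours. Scarface (scaf), a protease-like target of JNK, was at 142 and 95.7 CPM, with 547 CPM in the early tumours. For these 4 genes both tumours lay above every other eye-antennal library.

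Of 21 JNK reporter and output genes, 5 passed 2-fold above control and 1 below, beside 8.16% and 9.89% of all genes. The median log2 fold was 0.10, but the upper quartile was 0.86, against 0.25 over all genes. The 5 were Ilp8, Ets21C, upd2, upd3 and Gadd45, and 4 of them remained at low levels. Ilp8 (3L:17029812-17032080), the peptide that delays pupariation, was called, at 2.10 CPM in control discs and 10.6 CPM in RasV12 scrib BskDN (5.06-fold, 3.59 to 7.32). It was at 16.8 CPM in RasV12 alone, 364 CPM in the early tumours and 566 CPM in the late tumours. The Ets factor gene Ets21C was at 1.83 CPM in control discs, 8.04 CPM in RasV12 discs, 6.20 CPM in RasV12 scrib BskDN (3.40-fold, 2.31 to 5.11) and 154 CPM in the early tumours. Both genes were thus above control in RasV12 scrib BskDN, below RasV12 alone, and more than 10-fold below the early tumours. They differed in scrib BskDN discs, which lack RasV12. There Ets21C was at 15.01 CPM, above RasV12 alone and RasV12 scrib BskDN, and Ilp8 at 3.361 CPM, below both. The DNA damage and stress gene Gadd45 was the exception, at 30.0 CPM in control discs, 68.7 CPM in RasV12 scrib BskDN discs and 70.4 CPM in the early tumours (2.29-fold, 2.07 to 2.53). The member below was mol, which matures the oxidase Duox, at 21.3 CPM in control discs, 4.80 CPM in RasV12 scrib BskDN (4.45-fold lower, 3.56 to 5.60) and 2.97 CPM in BskDN alone. The JNK cascade itself, 14 genes from the ligand egr to puc, had a median of 0.17 and no member past 2-fold other than bsk.

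The JAK/STAT pathway, which the Upd cytokines activate, was near control in the same way. The cytokine gene upd1 was at 4.51 CPM in control discs, 7.85 CPM in RasV12 scrib BskDN (1.74-fold, 1.33 to 2.29) and 72.7 CPM in the early tumours. Its relative upd2 was at 0.913, 2.37 and 59.8 CPM (2.60-fold over control, 1.47 to 4.81), and upd3 at 0.967, 2.37 and 43.4 CPM (2.46-fold, 1.41 to 4.48). All 3 were above control by ratio and yet at under 10 CPM. The feedback inhibitor Socs36E was at 58.8, 82.0 and 303 CPM, and chinmo, a zinc finger factor downstream of STAT, at 62.1, 47.1 and 421 CPM. Of the 12 genes of this list, upd2 and upd3 were the 2 past 2-fold, 0 were called, and the median was 0.20. Among 21 transcription factors linked to this tumour model, Ets21C was the 1 member at least 2-fold higher. The nuclear receptor gene ftz-f1 was at 37.9 CPM in control discs, 19.2 CPM in RasV12 scrib BskDN discs and 124 CPM in the early tumours, and Atf3, a bZIP factor, at 36.3, 23.7 and 74.5 CPM.

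**Figure D2:**
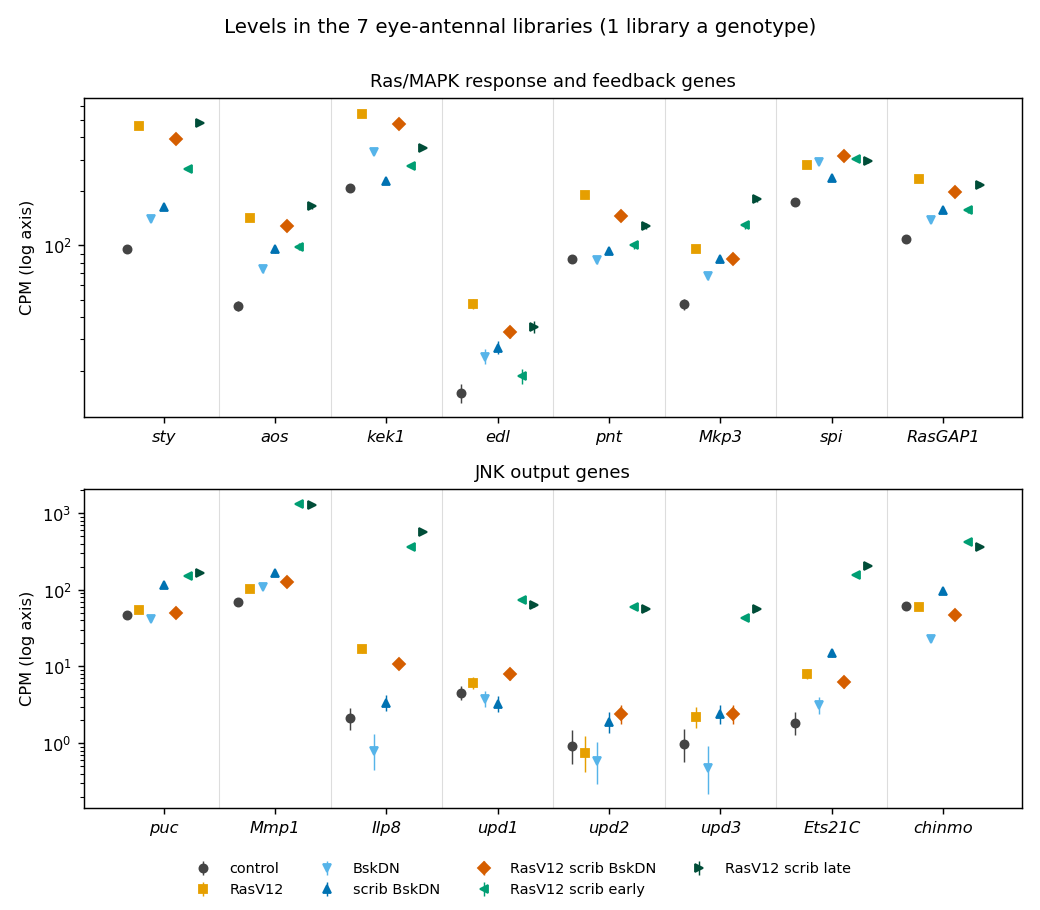
Normalized CPM on a log axis of 8 Ras/MAPK response genes (top) and 8 JNK output genes (bottom) in the 7 eye-antennal libraries, 1 point a library, with exact 95% Poisson intervals as bars where they exceed the symbol. In sty, aos and kek1 RasV12 scrib BskDN lies near RasV12 and above control; in Mmp1, Ilp8, the upd genes and Ets21C it lies far below both tumours.

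The same question was put to genes chosen without either library of the comparison. Between the early tumours and RasV12 alone, which differ by scrib loss and by age, 145 of 10029 genes (1.45%) were called higher in the tumour. In RasV12 scrib BskDN over control 7 of these 145 were called higher, or 4.83%, beside 1.11% of all genes. They make up 6.31% of the 111 genes higher here. Called lower were 22, or 15.2%, beside 3.41% of all genes. The 22 lower genes were at 8.49 to 281 CPM in control, 0.298 to 37.7 CPM with RasV12 alone and 0.242 to 30.8 CPM with RasV12 scrib BskDN. Each of the 22 was below control in RasV12 as well, as the gene Phk-3 shows, named after its values were seen, with 281, 37.7 and 25.0 CPM in these libraries and 169 CPM in the early tumours. The median log2 fold of the 145 genes was -0.57, against 0.06 over all genes. At least 2-fold higher were 27 (18.6%) and at least 2-fold lower 52 (35.9%), beside 8.16% and 9.89% of all genes. Both shares were thus above those of all genes, and more of the 145 passed 2-fold below control than above it. The set was chosen for levels lower in RasV12 alone than in the early tumours. The part of the JNK block in these counts was not tested.

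The 7 genes that were higher in both comparisons were Ilp8, CG13606, CG9686, CG13215, CG6912, CG3984 and the ciliary gene BBS8. CG13606 was at 2.58 CPM in control discs, 10.9 CPM in RasV12 discs, 74.5 CPM in RasV12 scrib BskDN (28.9-fold over control, 21.7 to 39.4) and 135 CPM in the early tumours. It had the largest ratio of the higher genes with at least 20 CPM. CG6912 and CG3984, which lie next to each other (3R:15135138-15137004 and 3R:15137148-15139007), were at 14.2 and 9.88 CPM in RasV12 scrib BskDN discs and under 0.5 CPM in control discs. They were at 22.6 and 17.8 CPM in scrib BskDN discs, at 7.26 and 5.51 CPM in discs with BskDN alone and at 12.3 and 9.62 CPM in the early tumours. So all 3 BskDN libraries were above control in both genes, the 1 without RasV12 or scrib loss included. CG13215 was at 1.34 CPM in control discs, 8.04 CPM in RasV12 scrib BskDN discs and 245 CPM in the early tumours, so that most of its tumour level was absent with the block.

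The 10 genes with the largest tumour ratio show the rest. Tiggrin (Tig), a matrix ligand of integrins, was at 193 CPM in control discs, 138 CPM in RasV12 discs, 240.2 CPM in RasV12 scrib BskDN (1.24-fold over control, 1.19 to 1.30) and 4051 CPM in the early tumours. The tyrosine decarboxylase gene Tdc1 was at 7.14 CPM in control discs, 6.83 CPM in RasV12 scrib BskDN discs and 157 CPM in the early tumours, and aspr at 31.3, 11.5 and 219.9 CPM. None of these 3 was at least 2-fold above control with JNK blocked. Tdc2 was at 0.430, 2.28 and 24.9 CPM (5.298-fold over control, 2.48 to 12.98). The cathepsin gene CtsL2, with a single count in control, was at 0.0537, 2.13 and 21.4 CPM (39.68-fold, 6.759 to 1602). Both were thus past 2-fold above control, at low levels in RasV12 scrib BskDN. The cuticle gene Cpr47Eb was at 4.89 CPM in control discs, 1.02 CPM in RasV12 scrib BskDN discs and 27.8 CPM in the early tumours, and CG18853 at 3.97, 3.63 and 26.0 CPM. CG18853 had 0 counts in RasV12 discs and in scrib BskDN discs, so that its tumour ratio is taken against the floor of 3 counts. In the late tumours it was at 4.29 CPM. The proteasome subunit gene Prosalpha1 stands in this set because of its low level in RasV12 (1.39 CPM), and it was at 90.2 CPM in control discs and 0.242 CPM in RasV12 scrib BskDN discs. Its neighbour Prosalpha1R, a close relative, was at 1.02 and 5.76 CPM, and the split of reads between the pair is uncertain. Also past 2-fold above control were upd2 (2.599-fold, 1.471 to 4.814) and CG13215 (5.988-fold, 3.917 to 9.52), both described above, which complete the set.

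**Figure D3:**
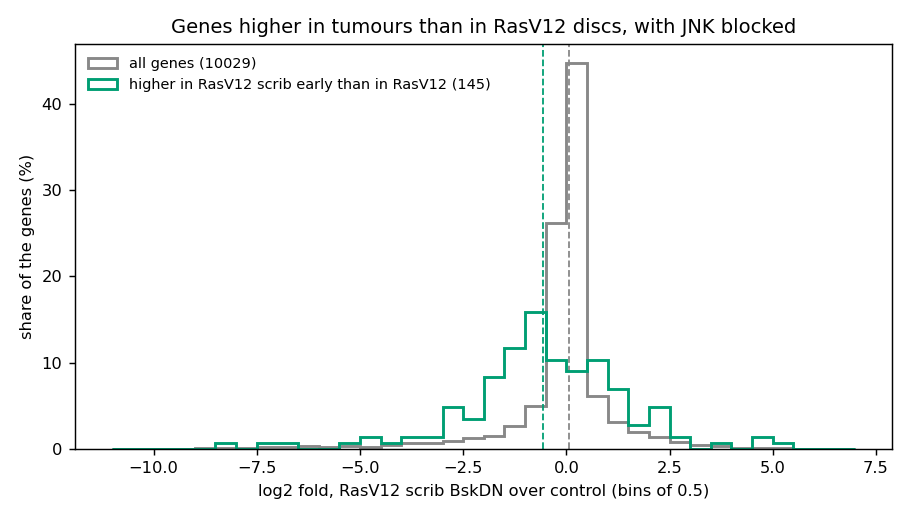
Log2 fold of RasV12 scrib BskDN over control (horizontal, bins of 0.5) for the 145 genes called higher in RasV12 scrib early than in RasV12 (green) and for all 10029 genes (grey), as a share of each set in percent; dashed lines are the medians, -0.57 and 0.06. The tumour genes spread more widely than all genes, and their centre lies below 0.

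Of 18 Yorkie target genes, the growth and survival genes that Hippo signalling restrains, 13 were above control by less than 2-fold, 2 by more, and 3 were below control. Expanded (ex), an upstream Hippo component and itself a Yorkie target, was at 329 CPM in control discs, 401 CPM in RasV12 discs and 566 CPM in RasV12 scrib BskDN (1.72-fold, 1.67 to 1.77), and at 659 CPM in the early tumours. The caspase inhibitor gene Diap1 was at 288 CPM in control discs, 387 CPM in RasV12 discs and 499 CPM in RasV12 scrib BskDN (1.73-fold, 1.68 to 1.79). Here the early tumours, at 289 CPM, were at the control level. The glypican genes dally (330.5 and 553 CPM) and dlp (158 and 257 CPM), kibra (42.4 and 65.0 CPM) and CycE (71.97 and 102 CPM) were also above control by less than 2-fold. BskDN alone was above control in each of them as well, with ex at 443 CPM, Diap1 at 462 CPM, dally at 441.5 CPM, dlp at 235 CPM, kibra at 56.5 CPM and CycE at 90.6 CPM. In scrib BskDN, ex was at 672 CPM, Diap1 at 573 CPM and kibra at 107 CPM, above RasV12 scrib BskDN in each case. Four-jointed (fj), a Golgi kinase of the Fat branch, went the other way, at 253 CPM in control discs, 210.3 CPM in RasV12 scrib BskDN discs and 579 CPM in the early tumours. The 2 Yorkie targets past 2-fold were upd2 and upd3. The median log2 fold of the list was 0.56, against 0.31 in BskDN discs and 0.54 in scrib BskDN discs over the same control. It was 0.18 in RasV12 discs, 0.81 in the early and 0.89 in the late tumours. The 16 core Hippo genes had a median of 0.14 with 0 past 2-fold.

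Most other signalling and growth lists lay within a narrow band around control. No member was at least 2-fold apart among 31 cell cycle and replication genes (median -0.10), 11 Hedgehog genes (0.12), 14 Dpp genes (0.16), 19 polarity and adhesion genes (0.14), 9 wing patterning genes (0.21) and 12 integrin and cytoskeleton genes (0.00). In the Wnt list 2 of 17 genes were past 2-fold, Wnt4 at 10.4 and 23.7 CPM and Wnt10 at 0.913 and 2.13 CPM, and the median was 0.18. Ribosomal protein genes (78 genes, median -0.01) and respiratory chain genes (69 genes, -0.10) were as close by their medians. At least 2-fold higher were 2 of the ribosomal protein genes and 1 of the respiratory chain genes, and 0 were lower. In the cell death list the proapoptotic genes skl (0.430 and 2.71 CPM) and grim (1.07 and 3.20 CPM) were the 2 of 14 past 2-fold, while rpr (12.1 and 9.88 CPM) and hid (57.8 and 80.4 CPM) were not.

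Among genes of eye development dac, ato and boss were at least 2-fold lower, and most others were within 2-fold of control. Dachshund (dac, 2L:16466512-16485998), a retinal determination factor, was at 331 CPM in control discs, 157 CPM in RasV12 discs and 150.2 CPM in RasV12 scrib BskDN (2.20-fold lower, 2.11 to 2.30). The other BskDN libraries had it at 280 and 332 CPM, so that the 4 libraries with RasV12, at 86.2 to 181 CPM, were the low ones. Atonal (ato), the proneural factor that founds the R8 photoreceptor, was at 56.1 CPM in control discs, 26.2 CPM in RasV12 discs and 23.6 CPM in RasV12 scrib BskDN (2.38-fold lower, 2.13 to 2.65). The factor gene sens, which acts after ato in R8, was at 13.1, 10.8 and 6.54 CPM. The receptor sev, which specifies R7, was at 152, 167 and 78.1 CPM (1.95-fold lower than control, 1.83 to 2.07), and its ligand boss at 2.90, 3.63 and 1.02 CPM. So sev and boss, unlike dac and ato, were not low in RasV12 alone. Unlike dac, ato was also low in scrib BskDN discs, which lack RasV12, at 27.0 CPM. The levels of sens, sev and gl were lower still in the early tumours, at 3.33, 56 and 55.2 CPM.

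Of 15 retinal determination genes, 9 were below control, 1 of them, dac, at least 2-fold, and the median log2 fold was -0.38. Past 2-fold on the higher side were hbn (0.0537 and 2.95 CPM) and Pph13 (0.913 and 3.10 CPM), both at low levels. Of 23 photoreceptor genes 2, ato and boss, were at least 2-fold lower and 2, pros and fne, were called higher. Above control were 11 of the 23, among them the neuronal gene elav at 109 and 171 CPM, and the median was -0.08. Among 21 Notch pathway genes the 2 past 2-fold on the lower side were E(spl)m4-BFM at 75.5 and 32.4 CPM (2.33-fold, 2.13 to 2.56) and E(spl)mdelta-HLH at 60.1 and 28.9 CPM (2.08-fold, 1.88 to 2.30), both targets of Notch in proneural clusters. The remaining E(spl) genes above 5 CPM were within 2-fold, and the median of the list was 0.08. In the Hox list Antp, which specifies thoracic segments, was at 11.98 CPM in control discs and 4.80 CPM in RasV12 scrib BskDN discs, and Scr at 16.3 and 37.1 CPM.

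Genes that answer to ecdysone, the steroid that times moulting and pupariation, were above control in part. The nuclear receptor gene Hr3 was at 91.5 CPM in control discs, 30.9 CPM in RasV12 discs, 234 CPM in BskDN discs, 235 CPM in scrib BskDN discs and 238 CPM in RasV12 scrib BskDN (2.60-fold over control, 2.46 to 2.75). It was at 0.619 CPM in the early and 3.24 CPM in the late tumours. ImpE1, an ecdysone-induced gene of disc eversion, was at 460 CPM in control discs, 435 CPM in RasV12 discs and 1388 CPM in RasV12 scrib BskDN (3.02-fold, 2.95 to 3.09), with 39.3 CPM in the early tumours. The 3 libraries with BskDN were the highest of the 7 for both genes, and both tumours the lowest. The same held for ImpL1 (26.2 CPM in control discs, 81.9 CPM in RasV12 scrib BskDN discs, 3.12-fold, 2.82 to 3.46), for the repressor gene Blimp-1 (48.0 and 105 CPM, 2.19-fold, 2.02 to 2.37) and for the nuclear receptor gene Eip78C (37.4 and 86.2 CPM, 2.30-fold, 2.11 to 2.52).

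Eip93F, a factor of metamorphosis, was at 8.38 CPM in control discs and 30.1 CPM in RasV12 scrib BskDN (3.59-fold, 3.01 to 4.31), but also at 44.7 CPM in RasV12 alone. The receptor EcR was at 164 and 105 CPM. Of 21 genes of the ecdysone response, 6 passed 2-fold above control and 2 below, none was called, and the median log2 fold was 0.33. The 2 lower genes were Ldh, described below, and the glue gene Sgs3 (10.6 and 2.91 CPM). The labelled ages differ, at 5 and 6 days, and the part that developmental stage has in these levels was not tested.

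**Figure D4:**
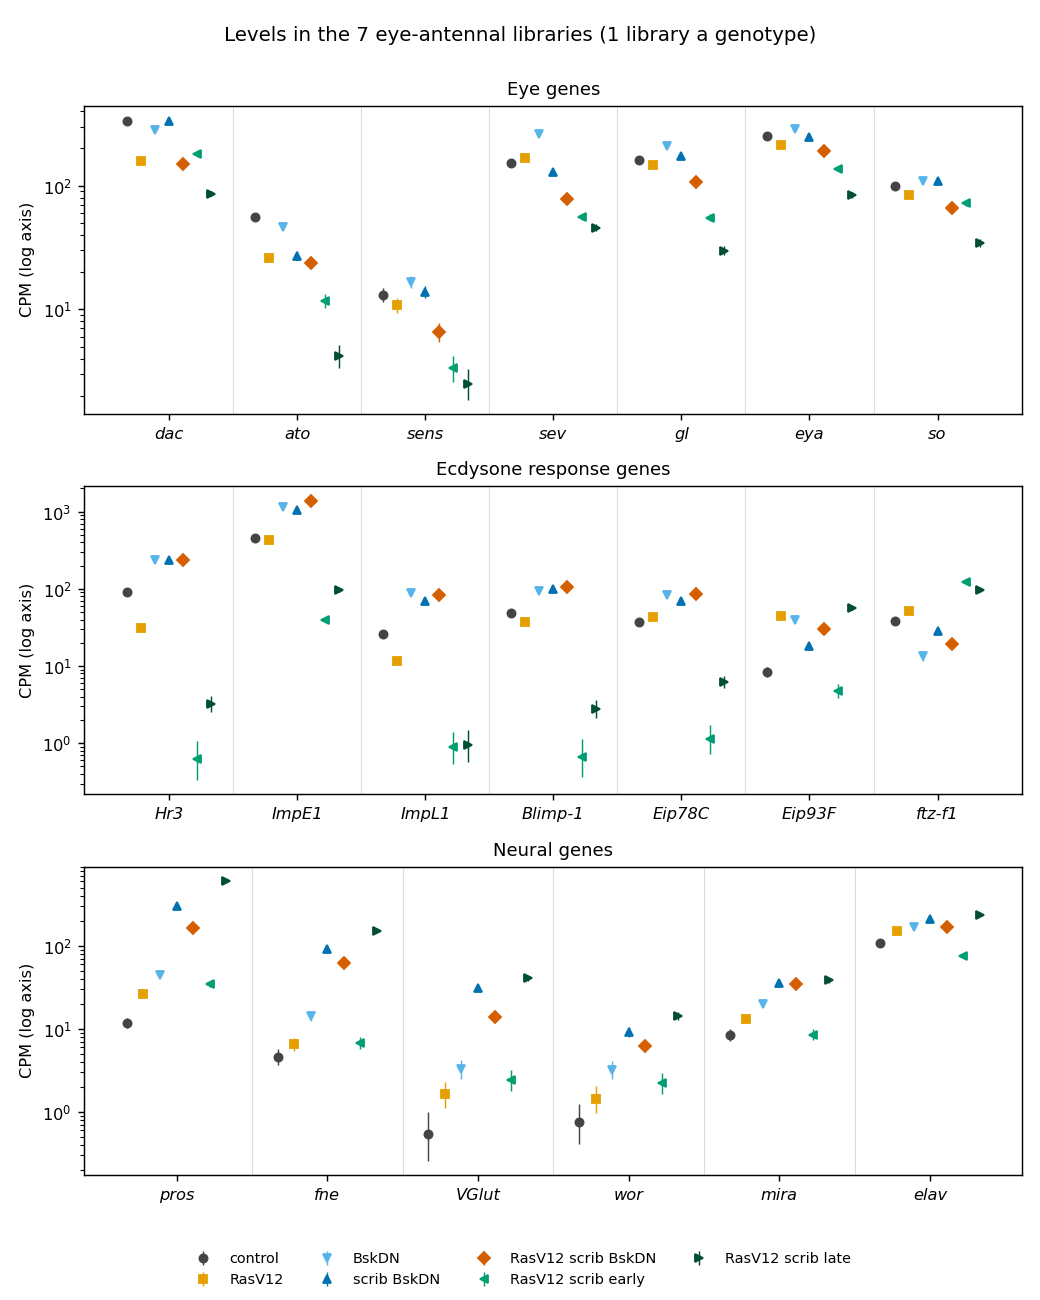
Normalized CPM on a log axis of 7 eye genes (top), 7 ecdysone response genes (middle) and 6 neural genes (bottom) in the 7 eye-antennal libraries, 1 point a library, with exact 95% Poisson intervals as bars where they exceed the symbol. Hr3, ImpE1, ImpL1, Blimp-1 and Eip78C are highest in the 3 BskDN libraries and lowest in both tumours; pros and fne are highest in the late tumours, scrib BskDN and RasV12 scrib BskDN.

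Several genes of the nervous system were higher, among them 3 glia markers, 2 neuroblast and optic lobe markers and 1 neuron marker of the 111 called genes. Prospero (pros, 3R:11328480-11407627), a homeodomain factor of neural progenitors, cone cells and R7, was at 11.9 CPM in control discs and 163 CPM in RasV12 scrib BskDN (13.6-fold, 11.9 to 15.7). The RNA-binding protein gene fne, a relative of elav, was at 4.62 and 62.3 CPM (13.5-fold, 10.8 to 17.0). The vesicular glutamate transporter gene VGlut was at 0.537 and 13.8 CPM (25.8-fold, 13.8 to 54.4). These 3 genes were at 304, 92.7 and 31.0 CPM in scrib BskDN discs and at 601, 152 and 40.8 CPM in the late tumours, above RasV12 scrib BskDN. In the early tumours they were at 34.6, 6.76 and 2.43 CPM. The long noncoding RNA cherub (lncRNA:cherub), known from brain neuroblasts, was at 19.4 and 199.5 CPM (10.3-fold, 9.24 to 11.5), and the glial odorant-binding protein gene Obp44a at 37.6 and 409 CPM (10.9-fold, 10.1 to 11.8). The elongation factor gene eEF1alpha2 was at 24.9 and 168 CPM (6.75-fold, 6.12 to 7.45). In RasV12 alone Obp44a was already at 250.6 CPM and eEF1alpha2 at 140.4 CPM, while cherub was at 17.3 CPM. The early tumours had Obp44a at 192.7 CPM, eEF1alpha2 at 38.2 CPM and cherub at 60.1 CPM.

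By list, 7 of 11 neuron markers passed 2-fold on the higher side and 0 on the lower, with a median log2 fold of 1.18, and 1, VGlut, was called. Of 9 neuroblast and optic lobe markers, 5 passed 2-fold on the higher side and 1, dac, on the lower, with the median at 1.15. Among them wor was at 0.752 and 6.25 CPM (8.31-fold, 4.78 to 15.6) and mira at 8.54 and 34.7 CPM (4.07-fold, 3.42 to 4.86). Of 11 glia markers 4 passed 2-fold, all on the higher side (median 0.39), with the astrocyte gene alrm at 1.02 and 9.83 CPM (9.63-fold, 6.01 to 16.3) and the transporter gene Eaat1 at 3.12 and 15.9 CPM (5.10-fold, 3.85 to 6.86). The pan-glial factor repo was at 23.9 and 41.3 CPM. The summed level of the neuron list was 393 CPM in control discs, 547 CPM in RasV12 discs, 621 CPM in BskDN discs, 1074 CPM in scrib BskDN discs, 657 CPM in RasV12 scrib BskDN discs, 448 CPM in the early and 1168 CPM in the late tumours, and no member of it was at 0 in any library.

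The higher genes were also set beside the late tumours, in comparisons without either library used here. Between the late tumours and BskDN alone, both at 11 days, 597 genes (5.95%) were called higher. Of these 62 were called higher here, which is 10.4% of that list, beside 1.11% of all genes, and 55.9% of the 111. Called lower were 53, or 8.88%, beside 3.41% of all genes, and the median of the 597 was 0.49. Between the late and the early tumours 526 genes (5.24%) were called higher. Of these 71 were called higher here, or 13.5% of that list, beside 1.11% of all genes, and 64.0% of the 111. Called lower were 29, or 5.51%, beside 3.41% of all genes, and the median of the 526 was 1.35. Without the 71 genes 40 were higher than control. Of the 62 genes, 51 were also among those called higher in the late over the early tumours. Whether brain or nerve tissue attached to the discs had a part in these levels was not tested.

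Most of the largest ratios on the lower side belonged to genes whose high level in control was shared by no other eye-antennal library. All 12 muscle markers were below control, 11 of them at least 2-fold and 10 called, with a median log2 fold of -5.10. The troponin C gene TpnC25D was at 161 CPM in control discs and 0.727 CPM in RasV12 scrib BskDN discs, the myosin light chain gene Mlc2 at 1306 and 25.5 CPM, and the actin gene Act57B at 1474 and 47.3 CPM (31.1-fold lower, 29.2 to 33.2). The summed muscle list was at 5893 CPM in control discs, 314 CPM in RasV12 scrib BskDN discs and 360.5 to 807 CPM in the other eye-antennal libraries. Control alone stood apart by this sum. Of 72 cuticle protein genes, 53 passed 2-fold below control and 8 above, 31 were called lower, and the median was -2.50. Lcp3 was at 332 and 0.291 CPM, Lcp9 at 432 and 0.581 CPM, and Vajk3 at 714 and 1.36 CPM (526-fold lower, 364 to 792). The list summed to 5546 CPM in control discs, 797 CPM in RasV12 scrib BskDN discs and 548 to 1021 CPM in the other eye-antennal libraries. An exception among the cuticle genes was Cpr49Ac, at 103 and 397 CPM. In BskDN it was at 391 CPM.

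The odorant-binding protein gene Obp56e was at 86.1 CPM in control discs and 0.0484 CPM, a single count, in RasV12 scrib BskDN (1778-fold lower, 319 to 70256). The uncharacterized gene CG7465 was at 811 and 0.630 CPM (1288-fold lower, 753 to 2419), and CG10953 and CG15597, at 70.1 and 193 CPM in control discs, had no more than 3 counts. Further genes with the largest ratios, at 25.8 to 211 CPM in control discs and under 0.5 CPM here, were CG9759, CG17362, CG13705, CG17105, Jig, CG11368, CG8087 and CG17134. In the other eye-antennal libraries these 8 genes ranged from 0 to 53.9 CPM, the highest being Jig in the late tumours. Of 7 prothoracic gland markers, the gland that makes ecdysone, 5 were at least 2-fold lower (median -1.84). The ecdysone synthesis genes spok and sad were at 377 and 266 CPM in control discs and at 50.2 and 49.6 CPM in RasV12 scrib BskDN discs. In the other libraries they ranged from 2.91 to 222 CPM and from 7.74 to 231 CPM, highest in scrib BskDN. Of 13 salivary gland genes 11 were at least 2-fold lower (median -1.84), with the new glue gene ng3 at 86.6 and 0.242 CPM. Their summed level, 163 CPM in control discs and 22.4 CPM here, was 1770 CPM in RasV12 discs and 1189 CPM in scrib BskDN discs.

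Antimicrobial peptide genes were lower, while most other immune genes were within 2-fold of control. Of 12 antimicrobial peptide genes, 11 were at least 2-fold lower, 4 were called, and the median log2 fold was -3.52, or -3.31 with the members at 0 counts set to 3 counts. The 4 members with at least 10 CPM in some library had a median of -6.22. Over the same control the list median was also low in RasV12 discs (-1.84), BskDN discs (-1.71), scrib BskDN discs (-3.61) and the early tumours (-3.67). In the late tumours it was 0.41. DptA was at 24.5 CPM in control discs and 0.194 CPM in RasV12 scrib BskDN (127-fold lower, 49.1 to 467), and CecC at 27.7 and 0.242 CPM (114-fold lower, 48.6 to 353). Drsl5, a drosomycin relative, was the member on the higher side, at 0.322 and 1.11 CPM. The recognition protein gene PGRP-SA was at 17.3 and 3.92 CPM, with 51.3 CPM in the early tumours. In the Toll and Imd list 4 of 16 genes were at least 2-fold lower and 0 higher, 5 were above control, and the median was -0.33, or -0.16 over the 14 genes that reached 10 CPM in some library. Of 11 hemocyte markers 2 were at least 2-fold lower, the prophenoloxidase gene PPO2 at 847 and 335 CPM and the hemolectin gene Hml at 641 and 286 CPM, and the median was -0.26. Their sum was 2514 CPM in control discs, 1593 CPM in RasV12 scrib BskDN discs and 818 to 1827 CPM in the other eye-antennal libraries. Fat body markers had 3 of 8 lower and 2 higher (median 0.50), with the storage protein gene Lsp1alpha at 52.1 and 8.67 CPM and Fbp1 at 94.8 and 229 CPM. The part of attached tissue and of blood cells in these values was not tested.

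Among metabolic genes the translation inhibitor Thor, a target of the insulin-regulated factor foxo, was at 85.8 CPM in control discs, 58.6 CPM in RasV12 discs, 34.1 CPM in BskDN discs and 24.4 CPM in RasV12 scrib BskDN (3.52-fold lower than control, 3.19 to 3.90). It was at 96.8 CPM in scrib BskDN discs and 116 CPM in the early tumours, so that RasV12 scrib BskDN was the lowest of the 7. Lactate dehydrogenase (Ldh) was at 118 CPM in control discs, 52.5 CPM in RasV12 scrib BskDN (2.26-fold lower, 2.10 to 2.43), 411 CPM in the early and 2229 CPM in the late tumours. It was below control as well in RasV12 discs (44.2 CPM), BskDN discs (19.55 CPM) and scrib BskDN discs (63.0 CPM). Of 12 glycolysis genes 10 were below control, with Ldh, Ald1 (693 and 276 CPM) and Gapdh1 (538 and 245 CPM) past 2-fold, and the median log2 fold was -0.52. Muscle RNA, given above, was lower beside them. Over the same control the glycolysis median was -0.42 in RasV12 discs, -0.47 in BskDN discs and -0.53 in scrib BskDN discs. It was -0.61 in the early and 0.67 in the late tumours. Ilp6, an insulin-like peptide, was at 9.18 and 20.8 CPM. The insulin-binding protein gene ImpL2 was at 475 and 569 CPM, with 1055 CPM in the early tumours.

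Stress genes gave a mixed picture. Of 14 heat shock and chaperone genes 4 passed 2-fold, all on the higher side (median 0.34), with Hsp68 at 55.6 and 174 CPM and Hsp70Bb at 150.2 and 472 CPM, while Hsp83 (3845 and 3026 CPM) was not. Hsp70Bc was called higher, at 2.79 and 20.8 CPM, but the Hsp70 copies are nearly identical, so that their counts are uncertain one by one. Of 15 oxidative stress genes 1 was past 2-fold, mol, on the lower side. Of 63 cytochrome P450 genes 27 were at least 2-fold lower and 4 higher (median -0.65), but the 28 of them that reached 10 CPM in some library had a median of -0.03. Cyp313a2 was at 17.0 CPM in control discs and at 0 counts in RasV12 scrib BskDN, at least 117-fold lower against 3 counts in that library, and it had 0 counts in every other library. Cyp6a17 was at 1.24 CPM in control discs and 27.5 CPM in RasV12 scrib BskDN (22.2-fold, 14.7 to 35.4), and at 27.3 CPM in RasV12 discs, 27.0 CPM in BskDN discs and 0.0473 CPM in scrib BskDN discs. Of 31 glutathione transferase genes 9 were at least 2-fold lower and 1 higher (median -0.49, or -0.11 over the 25 that reached 10 CPM).

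The noncoding RNAs of male dosage compensation were lower. RoX1 (lncRNA:roX1, X:3857230-3862697) was at 502 CPM in control discs and 67.6 CPM in RasV12 scrib BskDN (7.43-fold lower, 7.02 to 7.87), and lncRNA:roX2 at 35.5 and 4.31 CPM (8.25-fold lower, 6.60 to 10.4). In all 3 BskDN libraries roX1 lay between 60.1 and 120.4 CPM and in the 4 other eye-antennal libraries between 478 and 680.2 CPM, with no overlap. The sex of the larvae is not given in the labels and cannot be told apart from the BskDN transgene here. The 1578 considered genes of the X had a median log2 fold of 0.06, the same as all genes.

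Some genes had their highest level of the 7 eye-antennal libraries in RasV12 scrib BskDN. CG15756 (X:13534400-13536202) was at 14.8 CPM in control discs, 84.0 CPM in RasV12 scrib BskDN (5.67-fold, 4.99 to 6.46), 34.2 CPM in RasV12 discs and 1.95 to 16.2 CPM in the other eye-antennal libraries. The lipocalin gene NLaz, known as a JNK-responsive gene in stress tolerance, was at 5.26 and 29.6 CPM (5.62-fold, 4.54 to 7.03), with 22.9 CPM in BskDN discs and 1.90 to 5.94 CPM in the other 4. Black (b), the enzyme that makes beta-alanine for cuticle tanning, was at 6.39 and 30.8 CPM (4.82-fold, 3.96 to 5.91), and the tyrosine hydroxylase gene ple at 31.4 and 99.3 CPM (3.16-fold, 2.88 to 3.47). In scrib BskDN b was at 23.6 CPM and ple at 92.3 CPM. CG2269, CG15522, CG9686 and lncRNA:CR43144, also among the largest ratios, were 5.97-fold, 6.91-fold, 8.16-fold and 7.17-fold higher than control. They were not highest in RasV12 scrib BskDN, but each was above control there, in scrib BskDN and in the late tumours. CG2269 and CG15522 were highest in RasV12 alone, at 174.5 and 63.8 CPM, against 82.8 and 33.4 CPM in RasV12 scrib BskDN. Both were also above control in BskDN discs (49.1 and 11.3 CPM) and in the early tumours (24.8 and 35.3 CPM). CG9686 and lncRNA:CR43144 were highest in the late tumours.

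**Figure D5:**
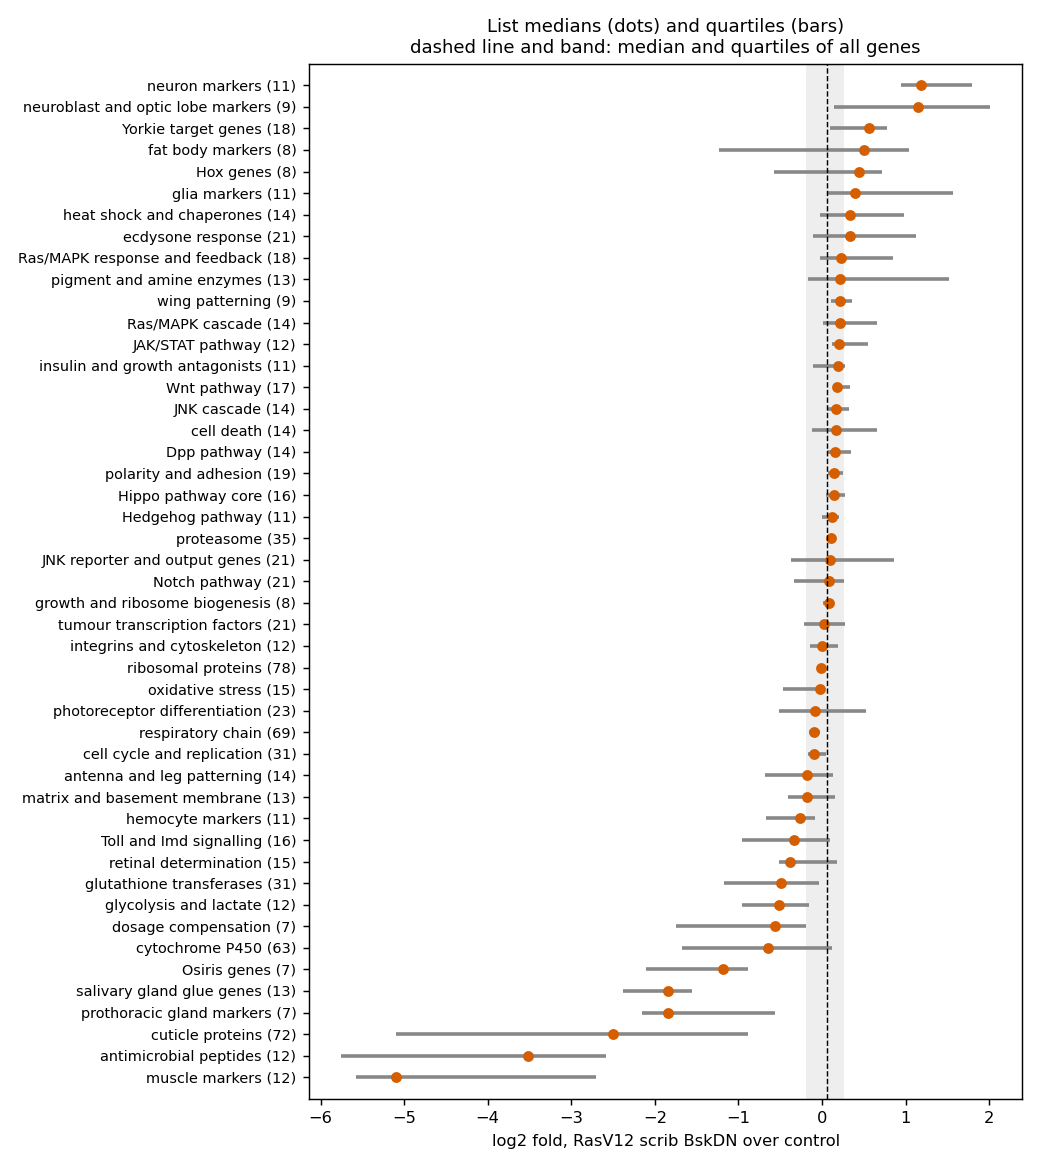
Median log2 fold of RasV12 scrib BskDN over control (dots) with quartiles (bars) for the gene lists with at least 7 considered members, the number of members in brackets; the dashed line and grey band are the median (0.06) and quartiles (-0.18 and 0.25) of all genes. Neuron markers (1.18) are at the top and muscle markers (-5.10) at the bottom. The median of JNK output genes (0.10) lies near that of all genes, with an upper quartile of 0.86.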

How the data were processed

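RNA of dissected discs was sequenced as 1 library for each of 8 groups. The authors deposited whole-number read counts per gene in 1 table. Per the submitters' processing notes TopHat2 and HTSeq were used; the sources used here give no versions, genome build, annotation or strand setting, so antisense and overlapping genes are uncertain, as are near-identical copies. The 5 tally rows were left out (in control and RasV12 scrib BskDN, reads in no gene were 6.07 and 6.16%, ambiguous reads 1.56 and 1.55%, multiply aligned reads 21.1 and 23.1%). No column was left unused. Names and coordinates came from the BDGP6 annotation by identifier: 14639 of 15348 matched, and the 709 unmatched held 9.00 to 9.81% of counts. Of 650 list entries 58 were not matched.

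Counts were scaled by TMM in edgeR 4.0.16 (R 4.3.3), and log2 values took 2 as prior count. All genes reaching 1 CPM in any library were considered. Ratios have exact conditional binomial 95% intervals, levels exact Poisson intervals, and the floor is 3 counts per library (0.161 CPM in control, 0.145 CPM in RasV12 scrib BskDN). Calls and intervals were tested on simulated counts with planted folds and counting error only. Calls that arise from biological or PCR spread were not covered by this. Members and lists were chosen with earlier results of these data known. Named genes are the perturbed genes, the 15 largest ratios each way among calls at 20 CPM or more, list members past 4-fold, up to 4 examples a list, and the 10 largest early tumour ratios over RasV12. Other genes named, among them puc, Mmp1, cher, scaf, chinmo, ple and b, were chosen after their values were seen. Alternatives were DESeq2 1.42.0 size factors, total counts, TMM over the 7 eye-antennal libraries, a prior count of 0.5, and other CPM and fold limits.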

Additional observations from a re-analysis of the deposited data

How the results depend on the processing

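No paired analysis was possible because each group has 1 library, and leaving out a replicate was not possible either. Under DESeq2 size factors, total counts, TMM over the eye-antennal libraries and a prior count of 0.5, the counts of higher genes (98 to 115, 111 as reported) and lower genes (346 to 356, 342 as reported) stayed within 1.5 times. The median of 21 tumour transcription factors, 0.02 as reported, was -0.04 with DESeq2 factors, -0.02 with total counts and -0.03 with TMM over the eye-antennal libraries; that of the integrin list, 0.00, was -0.03 to -0.05. The other list medians kept their sign under these settings, as did the 114 folds recomputed under DESeq2 factors and total counts. The median of all genes was 0.00 with DESeq2 factors. Limits changed more. With list members at 10 CPM or more, 11 of 50 list medians moved, among them P450 (-0.03) and glutathione transferase genes (-0.11), cuticle genes (-3.55), neuron markers (1.37) and JNK output genes (0.29). At a minimum of 10 CPM, 50 genes were higher, and 27 in place of 62 genes of the late tumour over BskDN. At 1 CPM, 272 were higher and 550 lower, with 22 in place of 7 genes of the early tumour over RasV12 and 180 of the late tumour. With a 2-fold limit, 351 were higher, 528 lower, 34 of the early and 201 of the late tumour set. Without the control-only genes 185 were lower, and without genes higher in the late than the early tumour 40 were higher, 2 alternatives chosen after seeing the data. With 1 library a side, counting depth limits low genes such as upd2, and biological spread is not measured.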

Other observations

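A few genes had near on-off levels across the eye-antennal libraries and were picked out after their values were seen. ND-AGGG, a subunit of respiratory complex I, was at 59.9 CPM in control discs, 151 CPM in RasV12 scrib BskDN discs, 8.001 CPM in scrib BskDN discs and 15.2 CPM in the early tumours. Prosalpha1 was at 67.1 CPM in BskDN discs and 26.2 CPM in scrib BskDN discs, beside the 1.39 CPM in RasV12 discs and 0.242 CPM in RasV12 scrib BskDN discs. Most proteasome genes stood close to control: 33 of 35 considered proteasome genes were above 0 on the log2 scale, with a median of 0.11.

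The cuticle tanning gene t (tan) was at 7.90 CPM in control discs and 0.291 CPM in RasV12 scrib BskDN (27.2-fold lower, 12.2 to 75.2). The basement membrane gene Ndg was at 9.72 and 1.06 CPM (9.12-fold lower, 5.84 to 14.9), whereas the collagen gene Col4a1 was at 404 and 347 CPM and the laminin gene LanA at 947 and 1000 CPM.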
